A study of Mus musculus with 39 samples.

Results

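The core clock genes Arntl, Clock, Npas2, Per1, Per2, Per3, Nr1d1, Nr1d2, Dbp and Tef were followed in skin and sensory ganglia after the cancer drug paclitaxel. They were taken by symbol from the deposited gene counts, and all 10 of the 10 were found among 22609 genes. C57 mice aged 8 to 12 weeks had received paclitaxel intraperitoneally at 3 mg/kg, with 2 injections 1 day apart, or vehicle. Hind paw skin came from paclitaxel females on days 2, 6, 16 and 26 after the last injection, from paclitaxel males on days 2, 6 and 15, and from vehicle females 1 day after vehicle. Lumbar dorsal root ganglia L3 to L5 (DRG, where the sensory neurons of the limb have their cell bodies) came from paclitaxel females and males on days 2 and 6 and from vehicle females 1 day after vehicle. Each of these 13 groups had 3 libraries. The titles of the male samples also carry the letters LC, which the labels do not explain. Titles of the vehicle samples call them WT (wild-type) control, while titles of the paclitaxel samples carry no WT mark. Males given vehicle were not analysed here. Nothing in the labels says that replicates came from separate animals, so the p-values rest on a spread between samples that may be technical. The hour at which tissue was taken is not given in the sources used here. Clock transcripts change with that hour, so in every comparison of groups below the treatment, sex or day and the hour of collection cannot be told apart. Vehicle tissue was also taken nearer to its injection than any paclitaxel tissue.

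The circadian clock is a feedback loop of transcription that nearly every cell of the body carries, skin cells and sensory neurons included. BMAL1, the product of Arntl, pairs with CLOCK or with its relative NPAS2 and switches on genes through E-box sequences, among them the Per and Nr1d genes, Dbp and Tef. PER proteins then block that pair. REV-ERB alpha and beta, the nuclear receptors made from Nr1d1 and Nr1d2, repress Arntl and Npas2 through RORE sequences, while DBP and TEF activate genes through D-box sequences. In a running clock the transcripts of Arntl and Npas2 therefore peak at other hours than those of Dbp, Tef, Per and Nr1d. The members are described below as an activator arm (Arntl, Clock and Npas2) and a target arm (the other 7).

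Libraries held 16781618 to 26136854 reads assigned to genes. Levels are given in CPM, a gene's reads per 1000000 gene reads of its library, and changes as log2 changes ± SE from edgeR's quasi-likelihood test, called at a Benjamini-Hochberg adjusted p under 0.05 over all genes. The libraries fell into 2 sets by the share of uniquely placed reads that touched more than 1 gene. All 18 libraries of paclitaxel females had shares of 0.205% to 0.303%, and the 21 of paclitaxel males and vehicle females had 0.539% to 0.746%. Where paclitaxel females are set against vehicle or males below, library set and treatment or sex cannot be told apart. In comparisons of paclitaxel males with vehicle females the set was the same, but sex and treatment cannot be told apart. All of these comparisons rest on the same 3 vehicle libraries per tissue. Sensory neuron markers summed to 6661 to 8599 CPM in DRG and 5.65 to 15.6 CPM in paw, and keratinocyte markers to 89410 CPM or more in paw, so both labelled tissues carried their defining genes. Fewer cells of a type and less RNA per cell cannot be told apart in such bulk samples.

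Where the genes lie was taken from the GENCODE annotation of GRCm38, a later build than the mm9 used for counting. Arntl (chromosome 7, 113207465 to 113314126) and Dbp (chromosome 7, 45705088 to 45710203) share a chromosome, as do Npas2 and Per2 on chromosome 1 and Per1 and Nr1d1 on chromosome 11. Exons of Dbp overlap the opposite-strand gene Sphk2 over 539 of 1837 bases (29.3%), and exons of Nr1d1 overlap Thra over 263 of 2721 bases (9.67%). The other 8 members share no exon base with another counted gene of known position, and genes outside the counts were not checked. Whether counting used strand is not given in the sources used here, so reads in those stretches are uncertain.

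RefSeq promoter sequences (GRCm38.p6, 250 bases before each start) were at hand for 9 members, all but Per2, with 14 starts in all. They are shown for the 3 members whose window held one of the clock's own response elements, since these are the letters through which the arms are known to act on each other. The E-box searched was CACGTG, the D-box TTATGTAA or TTACGTAA and the RORE TAGGTCA or TGGGTCA, each on both strands. Capitals mark the matches, and each sequence runs 5′ to 3′ on the strand of the gene.

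Per1 promoter, chr11:69098699-69098948, plus strand: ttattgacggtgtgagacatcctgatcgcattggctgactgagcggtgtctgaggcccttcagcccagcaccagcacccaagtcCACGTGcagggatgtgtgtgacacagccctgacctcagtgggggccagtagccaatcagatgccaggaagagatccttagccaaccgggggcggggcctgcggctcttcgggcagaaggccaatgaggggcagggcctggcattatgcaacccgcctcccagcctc

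Tef promoter, chr15:81802423-81802672, plus strand: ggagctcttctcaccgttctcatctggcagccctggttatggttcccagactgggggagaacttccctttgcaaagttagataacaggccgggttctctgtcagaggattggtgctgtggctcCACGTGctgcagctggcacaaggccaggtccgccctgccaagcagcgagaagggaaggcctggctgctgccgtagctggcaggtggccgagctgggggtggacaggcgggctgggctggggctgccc

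Per3 promoter, chr4:151044666-151044915, minus strand: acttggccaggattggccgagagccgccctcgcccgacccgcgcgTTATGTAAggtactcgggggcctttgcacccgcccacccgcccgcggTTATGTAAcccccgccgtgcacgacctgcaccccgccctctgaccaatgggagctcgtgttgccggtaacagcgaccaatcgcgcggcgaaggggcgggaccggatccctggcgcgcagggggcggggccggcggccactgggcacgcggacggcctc

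The E-box of Per1 begins 166 bases before the start and that of Tef 127 bases before it, and the second Tef start, which is not shown, has an E-box at 138 bases. Per3 carries the D-box TTATGTAA at 205 and again at 158 bases. No RORE of the letters searched was found in these windows. Bases after the start and other spellings of the element were not searched. Of all 32851 promoters in the table, 6.02% held the E-box, 0.931% the D-box and 5.38% the RORE. A match describes the sequence and is not evidence of binding here.

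To set the baseline, vehicle paw skin was compared with vehicle DRG. Of the 10 members, 9 were higher in paw, in a comparison in which 81% of all 16547 genes tested were called in either direction. Nr1d1 was 261, 299.9 and 279.8 CPM in paw and 36.9, 46.7 and 39.4 CPM in DRG (log2 change 2.79 ± 0.19). Clock was 260.1, 272 and 292 CPM in paw and 46.5, 51.2 and 50.98 CPM in DRG (2.48 ± 0.16). Arntl, Npas2 and Dbp were higher in paw by 2.16, 1.87 and 1.82 log2. Per1 was not called, at 67.3, 67.9 and 92.7 CPM in paw and 69.1, 98.3 and 92.4 CPM in DRG, and libraries of the tissues overlapped. The call of Per2 (0.84 ± 0.35) was lost without vehicle paw replicate 1, its highest library (42.1, 13.6 and 18.7 CPM in paw), where the log2 change was 0.22. It was also lost without any 1 of the 3 vehicle DRG libraries (log2 change 0.80 to 0.88), with only the vehicle groups in the fit (0.85) and with the muscle covariate (0.63).

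Levels per exon length put the members in order within a tissue. In vehicle paw, Nr1d1 led with 103.0 ± 7.12 CPM per kb (SD, n = 3), followed by Arntl at 32.2 ± 3.71, Tef at 29.3 ± 3.03 and Clock at 27.7 ± 1.60, a trio that lay within its own spread. Nr1d2 (17.3 ± 0.98) and Per1 (13.5 ± 2.58) came next, and Dbp, Npas2, Per3 and Per2 closed the order between 8.73 and 4.25 CPM per kb. In vehicle DRG, Tef led with 22.8 ± 0.58 CPM per kb, and Per1 (15.4 ± 2.75) and Nr1d1 (15.1 ± 1.86) did not differ beyond their spread. Arntl stood at 7.29 ± 0.72 and Npas2 was last at 1.98 ± 0.064. After paclitaxel Dbp moved up the order. In paw of females on day 6 it reached 54.4 ± 9.54 CPM per kb, below Nr1d1 alone, and in DRG of females on day 2 it reached 25.3 ± 7.35 CPM per kb, level within the spread with Nr1d1 (26.1 ± 7.54) and below Tef (32.4 ± 1.62).

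The first comparison set sensory ganglia after paclitaxel against vehicle ganglia. In DRG of both sexes, Arntl and Npas2 fell and Dbp, Tef, Per3 and Nr1d2 rose relative to vehicle females on both days. Dbp had the largest change of the 10, with 8.12-fold to 10.2-fold higher levels in females and 5.05-fold to 5.15-fold in males. Of the 10 members, 8 were called on day 2 in females against a background of 49% of 15577 genes, and 6 on day 6 against 41.3%. In males 8 were called on day 2 and 8 on day 6, where the background was 0.379% (59 genes) and 1.99% (310 genes). The median log2 change of all genes lay between -0.0026 and 0.021 in these 4 comparisons.

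**Figure D1:**
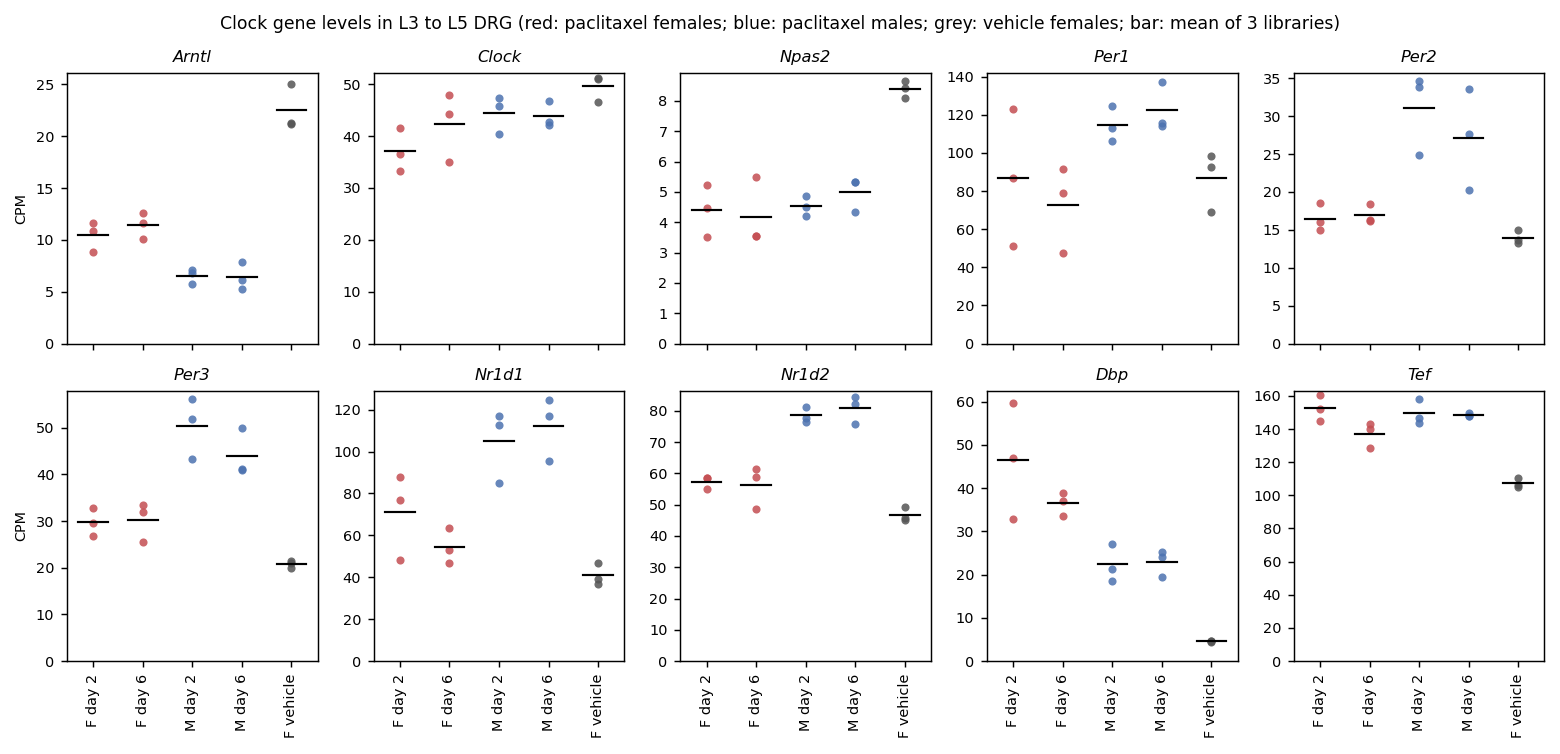
CPM (vertical axis, from 0) of each clock gene in every DRG library, with paclitaxel females (red) on days 2 and 6, paclitaxel males (blue) on days 2 and 6 and vehicle females (grey); bars are means of 3. All 12 paclitaxel libraries lie below vehicle for Arntl and Npas2 and above it for Dbp, Tef, Nr1d1 and Per3.

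Arntl, whose product pairs with CLOCK or NPAS2, had 10.8, 11.7 and 8.87 CPM in females on day 2 and 12.6, 11.6 and 10.05 CPM on day 6. In males it had 7.08, 5.71 and 6.84 CPM on day 2 and 7.84, 5.26 and 6.16 CPM on day 6, against 21.2, 25.1 and 21.3 CPM in vehicle females. No paclitaxel library reached the vehicle range, and the lowest 6 values were the males'. The log2 change was -1.098 ± 0.14 on day 2 and -0.95 ± 0.14 on day 6 in females (adjusted p = 8.71e-06 and 4.09e-05, edgeR). In males it was -1.73 ± 0.14 and -1.77 ± 0.14 (adjusted p = 3.84e-06 and 2.7e-06).

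Npas2, which can stand in for CLOCK, had the lowest level per exon length of the members in vehicle DRG. It had 4.48, 5.22 and 3.52 CPM in females on day 2, 3.54, 3.55 and 5.48 on day 6, 4.86, 4.51 and 4.21 in males on day 2 and 5.34, 5.34 and 4.32 on day 6, against 8.66, 8.42 and 8.11 CPM in vehicle. Every paclitaxel library was below every vehicle library. Log2 changes ran from -0.71 in males on day 6 to -0.97 in females on day 6. The female calls held whichever library was left out, while the male calls did not. On day 2 the male call was lost without paclitaxel replicates 1, 2 or 3 or vehicle replicates 1, 2 or 3 (log2 change -0.804 to -0.89, adjusted p = 0.0683 to 0.215), and on day 6 without paclitaxel replicates 1, 2 or 3 or vehicle replicates 1, 2 or 3 (log2 change -0.62 to -0.77, adjusted p = 0.0684 to 0.174). Same-numbered male day 6 and vehicle libraries deviated together, and with the replicate number as a block the day 6 call was lost (log2 change -0.71, adjusted p = 0.0552). Clock itself was called on female day 2 alone (-0.41 ± 0.11), at 36.5, 41.6 and 33.3 CPM against 46.5, 51.2 and 50.98 CPM in vehicle. Its other 3 changes ran from -0.104 to -0.196, with 95% intervals that reached from -0.42 to 0.12, and female day 6 was called without paclitaxel replicate 2 (log2 change -0.31, adjusted p = 0.0322).

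In the target arm of DRG, Dbp had 47.02, 32.7 and 59.7 CPM in females on day 2 and 36.99, 33.6 and 38.8 CPM on day 6. Males had 21.3, 27.1 and 18.6 CPM on day 2 and 25.2, 24.1 and 19.5 CPM on day 6, and vehicle females 4.45, 4.73 and 4.56 CPM. The groups were far apart, with the lowest paclitaxel library at 18.6 CPM and the highest vehicle library at 4.73 CPM. Log2 changes were 3.35 ± 0.21 and 3.02 ± 0.21 in females and 2.34 ± 0.21 and 2.36 ± 0.21 in males (adjusted p = 5.5e-08, 1.48e-07, 8.17e-05 and 8.76e-05, edgeR). Sphk2, the gene that overlaps it on the opposite strand, did not pass in any of these 4 comparisons, with log2 changes of -0.064 to -0.022. Genes with over 25% of their exon bases under an opposite-strand gene had a median log2 change of 0.21 in females on day 2, where the library set differed, and of 0.016 in males on day 2, where it did not.

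Tef, the other D-box activator of the list, had 152, 145 and 160.3 CPM in females on day 2, 143, 128 and 140.3 on day 6, 144, 158 and 147 in males on day 2 and 149.8, 148 and 148 on day 6, against 110.4, 106 and 105 CPM in vehicle. All 12 paclitaxel libraries were above vehicle, by 0.38 to 0.53 log2. Per3, a PER family member, had 26.8, 29.6 and 32.8 CPM and 33.4, 31.9 and 25.5 CPM in females and 43.3, 56.1 and 51.8 CPM and 40.97, 49.9 and 41.1 CPM in males on days 2 and 6, against 20.02, 21.4 and 21.1 CPM in vehicle. Again all 12 were above vehicle, by 0.52 and 0.57 log2 in females and 1.33 and 1.12 in males. In males Per2 rose as well, at 24.8, 33.9 and 34.6 CPM on day 2 and 20.2, 27.6 and 33.6 on day 6 against 13.6, 13.3 and 15.02 CPM in vehicle (1.204 ± 0.17 and 1.001 ± 0.17). The day 6 call was lost without vehicle replicate 2 (log2 change 0.95, adjusted p = 0.0793). In females Per2 had 95% intervals of -0.12 to 0.61 and -0.059 to 0.67 log2, and day 6 was called with only the compared groups in the fit (log2 change 0.298, adjusted p = 0.0279). Per1, a gene that also answers quickly to hormones and stimulation, passed in none of the 4, and female values ran from 47.4 to 123 CPM against 69.1, 98.3 and 92.4 CPM in vehicle. In males it had 106, 125 and 113 CPM on day 2 and 114, 137 and 116 CPM on day 6, all above the highest vehicle library (log2 changes of 0.46 and 0.54).

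The REV-ERB genes rose as well. Nr1d1 had 76.96, 48.1 and 87.8 CPM in females on day 2, 52.9, 46.8 and 63.5 on day 6, 117, 113 and 84.9 in males on day 2 and 125, 117 and 95.7 on day 6, against 36.9, 46.7 and 39.4 CPM in vehicle. The lowest paclitaxel library, 46.8 CPM, was within 0.2 CPM of the highest vehicle library. Nr1d1 was called in females on day 2 (0.799 ± 0.21) and in males on both days (1.41 ± 0.22 and 1.496 ± 0.22), but not in females on day 6 (0.44 ± 0.22, adjusted p = 0.127, edgeR). The male calls were lost without paclitaxel replicates 1 or 2 or vehicle replicates 1, 2 or 3 (log2 change 1.32 to 1.49, adjusted p = 0.0729 to 0.0964) on day 2, and without paclitaxel replicate 1 or vehicle replicate 2 (log2 change 1.41 to 1.58, adjusted p = 0.05099 to 0.0518) on day 6. The female day 6 value was called with only the compared groups in the fit (log2 change 0.43, adjusted p = 0.0267). Thra, the opposite-strand neighbour of Nr1d1, was higher in females (log2 change 0.35 on day 2 and 0.30 on day 6) and was not called in males (-0.032 and 0.038). Nr1d2 had 55.01 to 58.4 CPM on day 2 and 48.5 to 61.5 CPM on day 6 in females and 76.5 to 81.4 CPM and 75.97 to 84.5 CPM in males, against 45.3 to 49.2 CPM in vehicle. It was called in all 4 comparisons, although 1 female day 6 library (48.5 CPM) lay inside the vehicle range, by 0.298 and 0.299 log2 in females and 0.80 and 0.83 in males.

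Markers of other cells moved with some of these groups. The 7 keratinocyte markers were all called higher in females on both days. They summed to 186 to 279 CPM in paclitaxel females, 27.0 to 61.1 CPM in paclitaxel males and 29.3 to 31.6 CPM in vehicle. In the males none of the 7 was called. Of 7 sensory neuron markers, Prph, Calca and Nefh were called higher in females on both days (log2 changes of 0.25 to 0.78) and Scn10a lower on day 2 (-0.69). Nefh (0.27 and 0.31) and Calca (0.41 and 0.37) were called higher in males too, and the summed level was 7808 to 8599 CPM in paclitaxel females, 7590 to 8073 CPM in paclitaxel males and 6661 to 7027 CPM in vehicle. Of 4 Schwann cell markers, Pmp22 (-0.31 and -0.29) and Mbp (-0.1997 and -0.23) were called lower and Prx higher (0.25 and 0.18) in females and none in males. Their sums overlapped, at 26260 to 32100 CPM in paclitaxel females, 26560 to 34810 CPM in paclitaxel males and 28630 to 32580 CPM in vehicle. Of 4 macrophage markers, 3 were called lower in females on each day and 1 and 2 in males on days 2 and 6, with sums of 74.5 to 107 CPM in females and 78.8 to 103 CPM in males against 114 to 151 CPM in vehicle. Fibroblast markers, with 2 and 1 of 4 called lower in females on days 2 and 6, summed to 1133 to 1552 CPM in females and 1223 to 1385 CPM in males against 1588 to 2056 CPM in vehicle. Skeletal muscle markers reached 9863 CPM in a female day 2 library and 2563 CPM in a male day 2 library. Vehicle had at most 587 CPM, and none of the 10 was called. Adipocyte markers summed to at most 24.18 CPM in males on day 2 and 21.72 CPM on day 6, against 38.49 to 68.87 CPM in vehicle. Females overlapped vehicle, at 12.29 to 117.3 CPM on day 2 and 38.12 to 57.68 CPM on day 6. No adipocyte marker was called in either sex, with log2 changes of -1.79 to -1.19 in males. No marker of these lists was at 0. What part these cell types had in the clock gene changes was not tested.

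The same comparison was made in paw skin, over 4 female days and 3 male days. Arntl and Npas2 fell and Dbp and Tef rose in all 7 comparisons with vehicle females, in females as in males. Among the 21 paclitaxel libraries, all lay below the 3 vehicle libraries for Arntl and Npas2 and all lay above them for Dbp. Across all 15346 genes tested in paw, 3.84% had all 21 libraries on one side of vehicle, and in DRG 3.71% of 15577 genes had all 12. Of the 10 members, 6, 7, 7 and 5 were called in females on days 2, 6, 16 and 26, against backgrounds of 28.7%, 29.4%, 21.3% and 20.3% of all genes. In males 6, 6 and 5 were called on days 2, 6 and 15, against 5.85%, 5.88% and 4.26%.

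**Figure D2:**
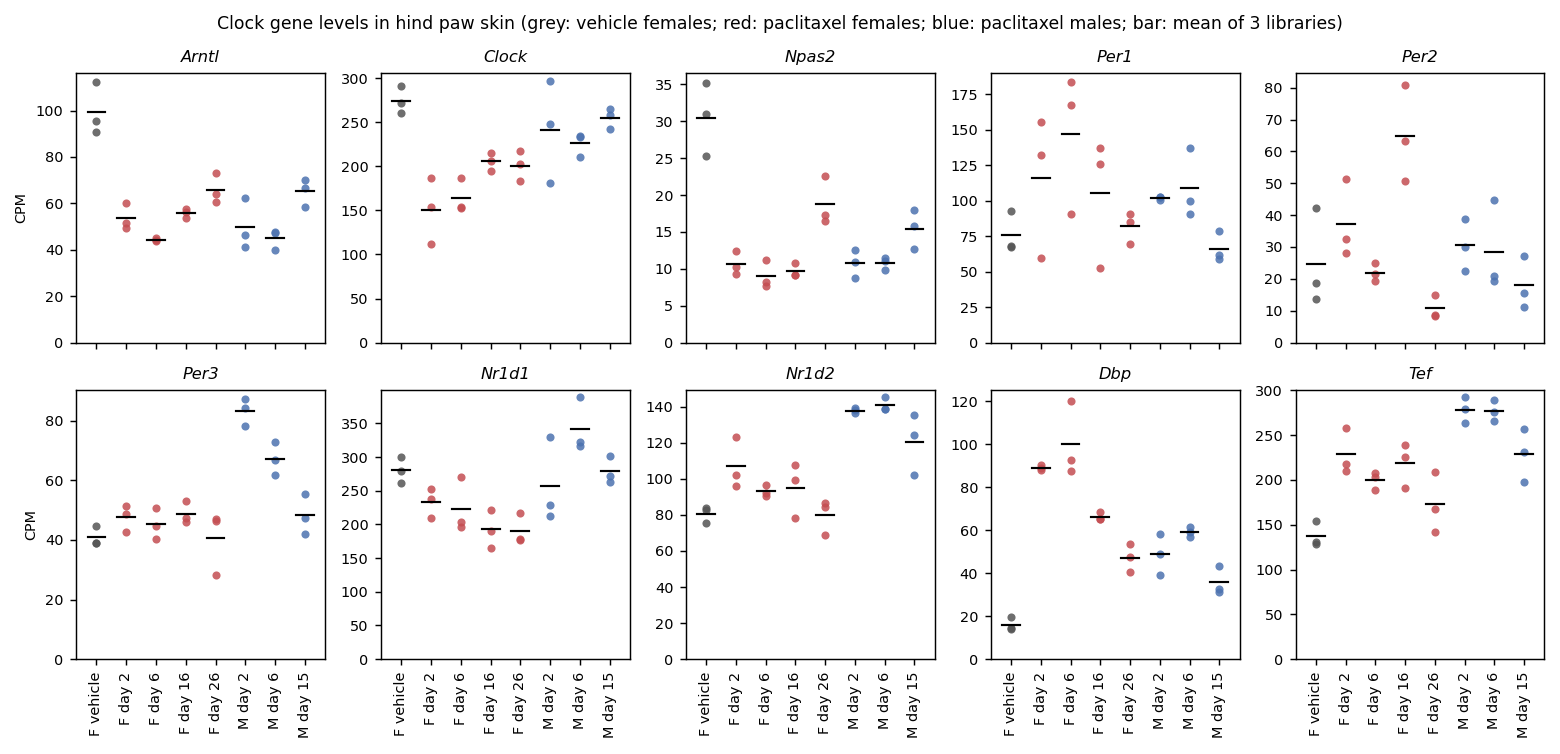
CPM (vertical axis, from 0) of each clock gene in every paw library, with vehicle females (grey), paclitaxel females (red) on days 2 to 26 and paclitaxel males (blue) on days 2 to 15; bars are means of 3. Arntl and Npas2 lie below vehicle and Dbp above it in all 21 paclitaxel libraries, while Per1 and Per2 scatter across the groups.

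Arntl in paw of females had 49.5, 60.3 and 51.5 CPM on day 2, 44.03, 43.6 and 45.2 on day 6, 53.6, 56.3 and 57.4 on day 16 and 64.1, 73.3 and 60.4 on day 26. Males had 41.3, 46.5 and 62.2 CPM on day 2, 40.03, 47.2 and 47.6 on day 6 and 58.6, 70.0 and 66.8 on day 15, and vehicle females 90.7, 95.4 and 112 CPM. The group means nearest to vehicle were those of the last day in each sex. Log2 changes were -0.801 ± 0.14, -1.03 ± 0.14, -0.73 ± 0.14 and -0.49 ± 0.14 in females by day, and -0.92 ± 0.14, -1.09 ± 0.14 and -0.56 ± 0.14 in males. The calls of the last days were lost without paclitaxel replicates 1 or 3 or vehicle replicate 3 (log2 change -0.397 to -0.46, adjusted p = 0.0721 to 0.103) in females, and without paclitaxel replicates 1 or 3 or vehicle replicates 1, 2 or 3 (log2 change -0.46 to -0.602, adjusted p = 0.0548 to 0.169) in males.

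Npas2 in paw had 12.5, 9.25 and 10.3 CPM on day 2, 8.18, 7.68 and 11.3 on day 6, 9.18, 9.204 and 10.8 on day 16 and 17.3, 22.5 and 16.5 on day 26 in females. It had 10.9, 8.73 and 12.6 CPM on day 2, 11.5, 11.002 and 9.85 on day 6 and 12.7, 17.9 and 15.8 on day 15 in males, against 25.3, 35.2 and 30.97 CPM in vehicle. No library overlapped vehicle. Npas2 fell by 2.705-fold, 3.07-fold, 2.92-fold and 1.52-fold in females by day and by 2.72-fold, 2.73-fold and 1.901-fold in males. The female day 26 call was lost without paclitaxel replicates 1 or 3 or vehicle replicates 2 or 3 (log2 change -0.46 to -0.61, adjusted p = 0.0693 to 0.1496), and the male day 15 call without paclitaxel replicates 1 or 3 or vehicle replicate 2 (log2 change -0.77 to -0.91, adjusted p = 0.0544 to 0.08204).

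Clock fell in paw of females on days 2 and 6, at 186, 154 and 112 CPM and 187, 152 and 153 CPM against 260.1, 272 and 292 CPM in vehicle (-0.78 ± 0.17 and -0.601 ± 0.17). The day 6 call was lost without paclitaxel replicate 2 (log2 change -0.498, adjusted p = 0.0574). On days 16 and 26 it had log2 changes of -0.31 and -0.35 and did not pass, although with only the compared groups in the fit it did (log2 change -0.35, adjusted p = 0.0331 on day 16, and log2 change -0.38, adjusted p = 0.0252 on day 26). In males Clock was not called, with log2 changes of -0.22 to -0.054, and on days 2 and 15 its libraries overlapped vehicle.

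Dbp was the member that rose most in paw. Females had 88.7, 88.2 and 90.4 CPM on day 2, 92.5, 87.4 and 120.01 on day 6, 65.1, 68.5 and 65.1 on day 16 and 47.4, 40.6 and 53.5 on day 26. Males had 58.4, 48.8 and 39.2 CPM on day 2, 61.7, 59.3 and 56.9 on day 6 and 43.2, 31.4 and 32.8 on day 15, against 14.7, 19.6 and 13.8 CPM in vehicle. The lowest paclitaxel library stood at 31.4 CPM and the highest vehicle library at 19.6 CPM. Log2 changes by day were 2.55 ± 0.17, 2.78 ± 0.17, 2.14 ± 0.16 and 1.65 ± 0.16 in females and 1.67 ± 0.16, 1.94 ± 0.16 and 1.195 ± 0.16 in males (adjusted p at most 0.000429, edgeR). Sphk2 was lower in females on days 2 and 16 (log2 change -0.41 and -0.50) and was not called in the other 5 comparisons.

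Tef had 218, 209.99 and 258 CPM on day 2, 208, 204 and 189 on day 6, 239, 226 and 191 on day 16 and 167, 142 and 209 on day 26 in paw of females. Males had 279, 292 and 263 CPM on day 2, 289, 266 and 276 on day 6 and 257, 198 and 231 on day 15, against 154, 131 and 128 CPM in vehicle. Of the 21 paclitaxel libraries 20 were above vehicle, the exception being a female library of day 26. Its log2 changes ran from 0.42 on day 26 to 0.81 on day 2 in females and from 0.77 on day 15 to 1.08 on day 2 in males. The day 26 call was lost without paclitaxel replicate 3 or vehicle replicate 3 (log2 change 0.296 to 0.36, adjusted p = 0.0763 to 0.0894) and with only the compared groups in the fit (log2 change 0.39, adjusted p = 0.0888).

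Among the REV-ERB genes of paw, Nr1d2 was called higher in 6 of 7 comparisons and Nr1d1 in none. Nr1d2 had 139, 138 and 136 CPM on day 2, 139, 146 and 139 on day 6 and 124, 102 and 135 on day 15 in males, against 84.03, 75.5 and 82.5 CPM in vehicle (0.84, 0.86 and 0.62 log2). In females it was called on days 2, 6 and 16 at 0.49, 0.35 and 0.33 log2, and on day 26 it had 86.8, 68.7 and 84.6 CPM and was not called. The call of day 6 was lost without paclitaxel replicate 3 (log2 change 0.29, adjusted p = 0.0848). The call of day 16 was lost without paclitaxel replicates 1 or 2 or vehicle replicates 2 or 3 (log2 change 0.26 to 0.33, adjusted p = 0.0708 to 0.128) and with only the compared groups in the fit (log2 change 0.3004, adjusted p = 0.122). Nr1d1 had 191, 222 and 165 CPM on day 16 and 177, 179 and 217 CPM on day 26 in females, against 261, 299.9 and 279.8 CPM in vehicle. Those days were called lower (-0.45 ± 0.15 and -0.46 ± 0.15), and the calls were lost without paclitaxel replicates 1 or 3 or vehicle replicates 1, 2 or 3 (log2 change -0.38 to -0.49, adjusted p = 0.0501 to 0.135) on day 16 and without paclitaxel replicates 1 or 2 or vehicle replicates 2 or 3 (log2 change -0.39 to -0.48, adjusted p = 0.0695 to 0.126) on day 26. In males Nr1d1 had 95% intervals of -0.37 to 0.25, 0.029 to 0.65 and -0.27 to 0.35 log2.

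The Per genes did not move together in paw. Per3 rose in males on day 2, at 78.3, 87.4 and 84.1 CPM, and on day 6, at 61.9, 66.8 and 72.8 CPM, against 44.6, 39.03 and 38.97 CPM in vehicle (1.097 ± 0.14 and 0.77 ± 0.14). In females its log2 changes were 0.086 to 0.35 and none was called. Per1 was called in females on day 6 (1.11 ± 0.35), at 167, 90.9 and 183 CPM against 67.3, 67.9 and 92.7 CPM in vehicle, and replicate 2 lay inside the vehicle range. That call was lost without paclitaxel replicates 1 or 3 or vehicle replicates 1 or 2 (log2 change 0.89 to 1.07, adjusted p = 0.0579 to 0.102), and with only the compared groups in the fit (log2 change 1.09, adjusted p = 0.0534). Per2 was called in females on day 16 (1.496 ± 0.42), at 80.9, 50.8 and 63.2 CPM against 42.1, 13.6 and 18.7 CPM in vehicle. It was lost without paclitaxel replicate 1 or vehicle replicates 2 or 3 (log2 change 1.199 to 1.33, adjusted p = 0.0593 to 0.0804), and with only the compared groups in the fit (log2 change 1.45, adjusted p = 0.103). On day 2 in females, Per1 was called without paclitaxel replicate 2 (log2 change 0.96, adjusted p = 0.0381) and Per2 without vehicle replicate 1 (1.29, 0.0284), and on day 26 Per2 was called lower without vehicle replicate 2 (-1.403, 0.0336) and by DESeq2 (-1.14, 0.0223). Over all 24 paw libraries Per2 ran from 8.46 to 80.9 CPM, a 9.56-fold range, and vehicle alone spanned 13.6 to 42.1 CPM.

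Markers of other cells differed between the paw groups too. Sensory neuron markers summed to 9.78 to 15.6 CPM in paclitaxel females, 5.65 to 9.88 CPM in paclitaxel males and 5.65 to 7.06 CPM in vehicle. Of these 7, Isl1 and Trpv1 did not pass the count filter in the paw fit and were not tested. Prph, Calca and Nefh were called higher on all 4 female days (0.86 to 2.602 log2) and Scn10a on days 2 and 6. None of those tested was called in males. None of the 4 Schwann cell markers was called in paw against vehicle. Fibroblast markers summed to 3356 to 4833 CPM in paclitaxel males, 1044 to 2990 CPM in paclitaxel females and 1514 to 2347 CPM in vehicle, with 3 of 4 called higher in males on day 2, 2 in females on day 2 and at most 1 on the other days. Macrophage markers summed to 214 to 421 CPM in paclitaxel males and 70.95 to 306.8 CPM in paclitaxel females, against 134 to 198 CPM in vehicle. Of these 4, Cd68 alone was called, higher in males on days 2 and 6 (1.56 and 1.17 log2). Skeletal muscle markers ran from 125 to 35770 CPM in paclitaxel females, from 683 to 17440 CPM in paclitaxel males and from 60.9 to 13920 CPM in vehicle, and none of the 10 was called against vehicle. With the mean muscle level as a covariate, each member called against vehicle in paw was called again, and Per2 on day 26 was called in addition (log2 change -1.16, adjusted p = 0.0451). Keratinocyte markers summed to 95990 to 112000 CPM in vehicle paw. All libraries of female days 6 and 16 lay above that range, at 141800 to 162400 and 114400 to 155300 CPM. So did those of male day 6 (114400 to 124700 CPM), while the other paw groups overlapped vehicle. What part the shifts of keratinocyte, fibroblast, macrophage and sensory neuron transcripts had in the clock gene changes was not tested.

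**Figure D3:**
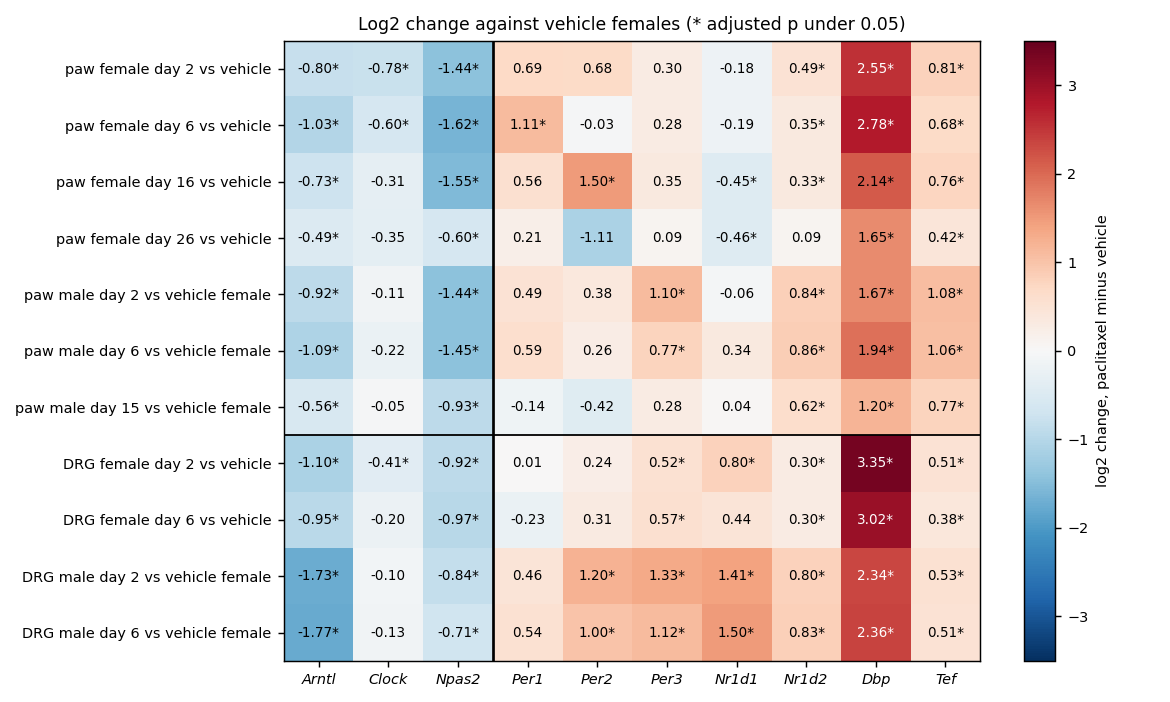
Log2 change of each clock gene (columns, activator arm left of the line) in each paclitaxel group against vehicle females of the same tissue (rows), as colour and number, with an asterisk at an adjusted p under 0.05. Arntl and Npas2 are lower and Dbp and Tef higher in all 11 rows, with Dbp at 1.195 to 3.35.

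Each library's balance of the arms was put into 1 number, the mean log2(CPM + 1) of Arntl, Clock and Npas2 minus the mean over the other 7, as a description with no test. In DRG it was -2.02 ± 0.43 and -1.799 ± 0.12 (SD, n = 3) in females on days 2 and 6 and -2.42 ± 0.15 and -2.38 ± 0.13 in males, against -0.52 ± 0.034 in vehicle. In paw it was -1.14 ± 0.25, -1.16 ± 0.044, -0.96 ± 0.28 and -0.016 ± 0.35 in females on days 2, 6, 16 and 26, and -1.001 ± 0.29, -1.11 ± 0.17 and -0.25 ± 0.304 in males on days 2, 6 and 15. Vehicle paw stood at 0.59 ± 0.24. No paclitaxel library of DRG came near vehicle, whereas in paw the highest library of female day 26, at 0.37, lay inside the vehicle range of 0.32 to 0.74.

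**Figure D4:**
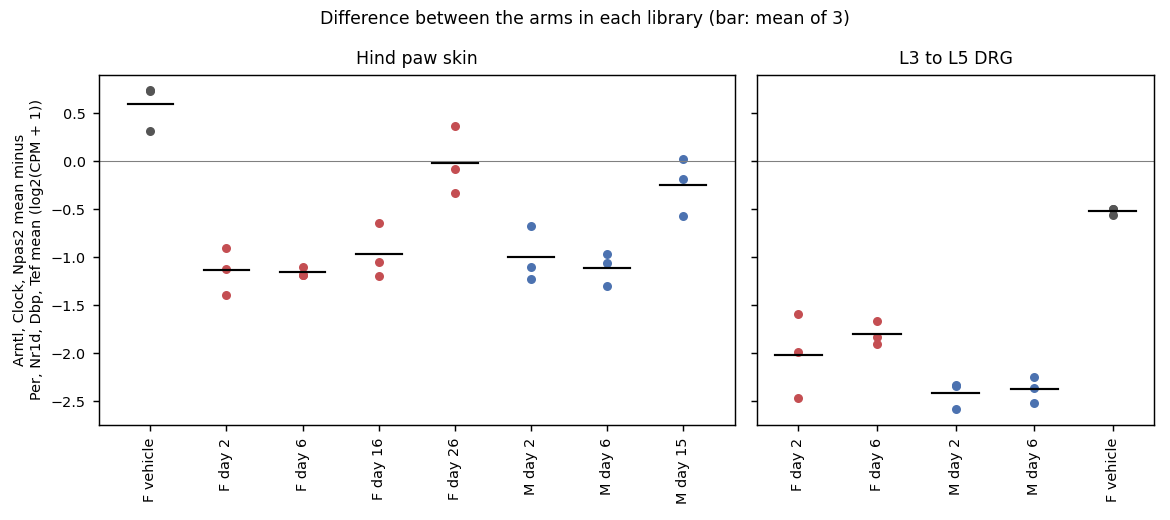
Mean log2(CPM + 1) of the activator arm minus that of the target arm (vertical axis) in every library of paw (left) and DRG (right), in paclitaxel females (red), paclitaxel males (blue) and vehicle females (grey); bars are means of 3. The last paw days, female day 26 and male day 15, lie nearest to vehicle, while the 12 paclitaxel DRG libraries lie at -1.60 or lower.

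Time after the last injection was compared within a sex, inside 1 library set. Pairwise, none of the 10 members was called by edgeR between female paw days 6, 16 or 26 and day 2, where 0.802%, 1.41% and 0% of genes were called. None was called between male paw days 6 or 15 and day 2 or between DRG days 6 and 2 in males, where 0% of genes were called, or in DRG of females (0.212%). At an unadjusted p under 0.05 the paw pairs had 0, 2 and 7 members in females and 2 and 6 in males, and the DRG pairs 1 in females and 0 in males. How many of all genes reached that looser threshold was not counted, so these numbers have no background beside them. DESeq2 called 249 genes between female paw days 26 and 2, where edgeR called 0. Among them were 5 members, with Dbp (log2 change -0.91), Per2 (-1.79), Nr1d2 (-0.41) and Tef (-0.40) lower and Npas2 (0.83) higher on day 26. DESeq2 also called Per3 lower on male day 15 than on day 2 (-0.80), 1 of 2 genes it called there, and no member in the other 5 pairs. By edgeR, Dbp (-0.93), Npas2 (0.95) and Nr1d2 (-0.46) were called between female days 26 and 2 without day 2 replicate 1. A test across all 4 female paw days by edgeR, in which 6.38% of genes passed, called Dbp (adjusted p = 0.00284), Npas2 (0.00886) and Per2 (0.0113). DESeq2 called 6 members there among 2291 genes, where edgeR called 979 genes. By mean, Dbp was 89.1 ± 1.15, 99.99 ± 17.5, 66.3 ± 1.95 and 47.1 ± 6.42 CPM (SD, n = 3) on days 2, 6, 16 and 26, and Npas2 10.7 ± 1.64, 9.04 ± 1.93, 9.73 ± 0.935 and 18.8 ± 3.29 CPM. Per2 was 37.3 ± 12.4, 21.98 ± 2.98, 64.97 ± 15.1 and 10.7 ± 3.66 CPM. The like test over 3 male days called no member and 0% of genes, while DESeq2 called 1 member among 3 genes in all. The edgeR test had 6 members at an unadjusted p under 0.05, again with no count over all genes.

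Whether the day 6 to day 2 difference itself differed between sexes or between tissues was tested by interaction. No member was called by edgeR in paw or DRG between the sexes (0% and 0.00642% of genes called), or between paw and DRG in females (2.01%) or males (0%). At an unadjusted p under 0.05 these 4 tests had 0, 0, 1 and 0 members, and DESeq2 called none of the members in them. The share of all genes at that looser threshold was not counted.

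Females and males were set against each other at matched days after paclitaxel, across the library sets. Dbp was higher in females in all 4 comparisons, and Per3 and Nr1d2 were lower. In DRG on day 2, 7 members were called against a background of 48.5% of genes, and on day 6, 6 against 39.8%. In paw 4 were called on day 2 and 5 on day 6, against 31% and 37.1%. Dbp differed by 1.01 ± 0.19 and 0.66 ± 0.19 log2 in DRG and by 0.89 ± 0.16 and 0.84 ± 0.16 in paw on days 2 and 6. Beside it, genes with over 25% of exon bases under an opposite-strand gene had medians of 0.22 and 0.18 in DRG and 0.24 and 0.22 in paw, against -0.011, 0.0073, -0.0055 and -0.060 for genes with none. The DRG day 6 call of Dbp was lost without female replicate 3 (log2 change 0.60, adjusted p = 0.0573) or male replicate 3 (0.56, 0.0567).

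Per3 differed by -0.81 and -0.55 log2 in DRG and -0.797 and -0.49 in paw between females and males on days 2 and 6, and Nr1d2 by -0.501, -0.53, -0.35 and -0.52. Per2, lower in females in DRG (-0.96 and -0.696), was not called in paw. Arntl was higher in females in DRG (0.63 ± 0.14 and 0.82 ± 0.14), and in paw its 95% intervals were -0.18 to 0.42 and -0.24 to 0.36. Npas2 was called in none of the 4, with log2 differences of -0.26 to 0.006, and in DRG on day 6 it was called without female replicate 3 (-0.52, adjusted p = 0.0225). Nr1d1 was lower in females in DRG on day 6 (-1.06 ± 0.21). Its call on DRG day 2 (-0.61) was lost at -0.37 to -0.64 (without female replicate 1 or female replicate 2 or male replicate 1 or male replicate 2) and with only the compared groups in the fit (log2 change -0.61, adjusted p = 0.127). It was lost without the low-count filter as well (log2 change -0.59, adjusted p = 0.0613). On paw day 6 its call (-0.53) was lost at -0.41 to -0.42 (without female replicate 2 or male replicate 1). Clock was lower in females on DRG day 2 (-0.305), a call lost at -0.22 to -0.28 (without female replicate 1 or female replicate 3 or male replicate 2 or male replicate 3), and on paw day 2 (-0.67), a call lost with only the compared groups in the fit (log2 change -0.68, adjusted p = 0.102). Under that fit Clock was called on paw day 6 (log2 change -0.38, adjusted p = 0.034), as it was with the muscle covariate (-0.5004, 0.0151). With only the compared groups the paw day 2 call of Nr1d2 was lost too (log2 change -0.35, adjusted p = 0.103), as it was at -0.296 to -0.31 (without female replicate 1 or female replicate 2). Tef was lower in females on paw day 6 (-0.39), a call lost at -0.34 to -0.35 (without female replicate 2 or male replicate 1), and on paw day 2 it was called with the muscle covariate (-0.32, adjusted p = 0.0304). Per1 was called in none of the 4 by edgeR, and on DRG day 6 it was lower in females by DESeq2 (-0.78, adjusted p = 0.0282).

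The change against vehicle was then compared between the tissues, a test added after the data had been seen. Against vehicle, Nr1d1 was called higher in 3 of 4 DRG comparisons and in none of paw, and the difference itself was called in females on day 2 (-0.98 ± 0.25 log2, paw minus DRG) and in males on days 2 and 6 (-1.48 ± 0.25 and -1.18 ± 0.25). In these comparisons 4.32%, 3.3% and 5.9% of genes were called. Tef rose more in paw than in DRG of males on both days (0.54 ± 0.14 and 0.53 ± 0.14), and Arntl fell less in paw than in DRG of males on day 2 (0.796 ± 0.21). Arntl was not called in males on day 6, but it was with DESeq2 (0.67, adjusted p = 0.0453), with only the compared groups in the fit (0.67, 0.0432) and with the muscle covariate (0.68, 0.0428), and Npas2 was called there with only the compared groups (-0.75, 0.0288). In females on day 6 none of the 10 was called by edgeR, with 1.93% of genes called and 3 members at an unadjusted p under 0.05, and DESeq2 called none. How many of all genes lay under that unadjusted p was not counted. For Dbp the difference was -0.79 ± 0.25, -0.26 ± 0.25, -0.68 ± 0.25 and -0.45 ± 0.25 in females and males on days 2 and 6, and none passed with edgeR. In females on day 2 DESeq2 called it (-0.79), and edgeR called it without DRG paclitaxel replicate 2 (-0.97) or paw vehicle replicate 3 (-0.90).

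By group mean, Arntl and Dbp ran opposite to each other across the days in paw. In paw of females the group with the lowest mean Arntl, day 6 (44.3 ± 0.848 CPM), had the highest mean Dbp (99.99 ± 17.5 CPM), and the group with the highest mean Arntl after paclitaxel, day 26 (65.9 ± 6.61 CPM), had the lowest (47.1 ± 6.42 CPM). In paw of males day 6 (44.9 ± 4.25 and 59.3 ± 2.39 CPM) and day 15 (65.1 ± 5.88 and 35.8 ± 6.46 CPM) took these places. In DRG the paclitaxel females lay above the males for both genes. Within a sex the DRG day with the higher mean Arntl had the lower mean Dbp. That was day 6 in females, with 11.4 ± 1.299 CPM of Arntl and 36.5 ± 2.602 CPM of Dbp, against 10.5 ± 1.43 and 46.5 ± 13.5 CPM on day 2. In males it was day 2, with 6.54 ± 0.734 CPM of Arntl and 22.4 ± 4.36 CPM of Dbp, while day 6 had 6.42 ± 1.31 and 22.95 ± 3.05 CPM. Neither gene was called between these DRG days, and the male means lay within each other's spread. In paw, edgeR called neither gene between day 2 and a later day of the same sex. Its test across female paw days called Dbp but not Arntl, and that across male paw days called neither.

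**Figure D5:**
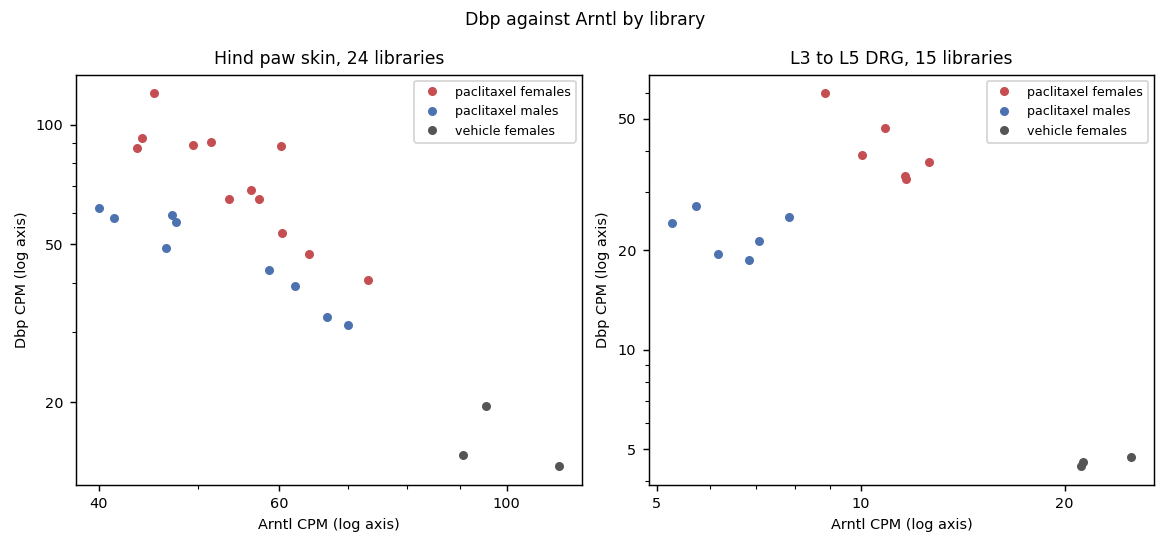
Dbp (vertical, log axis) against Arntl (horizontal, log axis), both in CPM, for each library of paw (left) and DRG (right) of paclitaxel females (red), paclitaxel males (blue) and vehicle females (grey). Vehicle libraries lie alone at the lower right, with Dbp at most 19.6 CPM in paw and 4.73 CPM in DRG.

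The rest of the clock was read from a list of 17 further genes. In paw, 3, 4, 4 and 2 of 17 rose in females on days 2, 6, 16 and 26 and none fell, shares near or below the backgrounds of 28.7%, 29.4%, 21.3% and 20.3%. In paw of males, where the backgrounds were 5.85%, 5.88% and 4.26%, 1 rose and 1 fell on each of days 2, 6 and 15. In DRG, 6 of 16 rose and 1 fell in females on each day, near the backgrounds of 49% and 41.3%. Of the same 16 in DRG of males, none was called on day 2, and 3 rose and 1 fell on day 6. The backgrounds there were 0.379% and 1.99%. The list medians lay between -0.14 and 0.20 log2, and those of all genes between -0.019 and 0.036. Bhlhe41, which makes the repressor DEC2, was called higher in all 7 paw comparisons, by 0.61 to 1.34 log2, and in DRG of females (0.67 and 0.83). Cry2, a cryptochrome that works with PER, rose in paw of females on days 2, 6 and 16 (0.78 ± 0.14, 0.54 ± 0.14 and 0.87 ± 0.14), in DRG of females (0.34 and 0.29) and in DRG of males on day 6 (0.301). Csnk1d, a kinase that acts on PER, rose in all 6 female comparisons by 0.22 to 0.45 log2.

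Nfil3, the factor that represses through the same D-box that DBP and TEF activate, fell in males, in paw on days 2 and 6 (-0.799 ± 0.22 and -0.99 ± 0.22) and in DRG on day 6 (-0.86 ± 0.17). Hlf, which belongs to the PAR family with Dbp and Tef, was called higher in paw of females on day 16 (0.44 ± 0.15) and in DRG of males on day 6 (0.47 ± 0.11), but lower in paw of males on day 15 (-0.74 ± 0.15). Gm129, the symbol under which the files hold the clock repressor Ciart, rose in DRG of males on day 6 (2.02 ± 0.37). Timeless rose in paw of females on day 6 (0.504 ± 0.17), Fbxl21, an F-box gene, fell in DRG of females on day 2 (-0.66 ± 0.16), and Btrc, part of a ligase that marks PER for breakdown, rose there on day 6 (0.25 ± 0.066).

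Of 12 genes listed as clock output, 3, 3, 3 and 1 were called in paw of females by day and 7 and 5 in DRG of females, shares near or below the same backgrounds apart from DRG day 2, and 2, 2 and 1 in paw of males. Their medians lay between -0.18 and 0.14 log2. Among them Tspan4 rose in 4 female and 2 male paw comparisons (0.92 to 1.495 log2) and in DRG of females (1.21 and 1.27). Wee1, a cell cycle kinase under E-box control, rose in paw of females on days 2, 6 and 16 (0.61, 0.61 and 0.91) and in DRG of females (0.44 and 0.36), and Lonrf3 fell in paw of females on days 2 and 6 (-0.79 and -0.76) and of males on all 3 days (-0.84 to -0.61). In DRG of males none of the 12 was called on day 2, and Cdkn1a alone on day 6 (-0.39), against backgrounds of 0.379% and 1.99%. Those of paw males were 5.85%, 5.88% and 4.26% on days 2, 6 and 15. Of 10 glucocorticoid response genes, 1 or 2 rose and none fell on each female paw day, Ddit4 each time (0.90 to 1.30), and in DRG 2 rose in females on day 2 (Ddit4, 1.03, and Fkbp5, 0.52). These female counts were below the backgrounds, and the list medians were -0.095 to 0.53 log2. Over the 5 male comparisons 1 was called, Mt2 in paw on day 2 (-0.70), where 5.85% of all genes were called. Of 18 immediate early genes, 5, 9, 6 and 5 fell on female paw days 2, 6, 16 and 26, Zfp36 among them each time (-1.53 to -0.88), and Jund alone rose. The 6, 10, 7 and 6 called stood against backgrounds of 28.7%, 29.4%, 21.3% and 20.3%, and the list medians were -0.69 to -0.28 log2. In DRG of females 5 rose and 4 fell on day 2, against a background of 49%, and 3 rose and 7 fell on day 6, against 41.3%, with medians of 0.018 and -0.31 log2. Over the 5 male comparisons 1 was called, Egr2 in paw on day 15 (0.87), where 4.26% of all genes were called.

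With the members and the 17 further clock genes left out, the genes with the pattern most like Arntl were sought among 11584 genes over the 39 libraries, with each gene centred within tissue and library set. The likeness is Pearson's r and is given as a description, with no test. The highest r among these belonged to Xist (0.84), Kdm6a (0.82), Mdfic (0.82), Npnt (0.80) and Kdm5c (0.77), and the lowest to Rsad1 (-0.59), Ndrg4, Anxa7, Tspan4 and Hdac11 (-0.56). With Dbp the highest among these were Anxa7 (0.68), Ndrg4, Hdac11, Fras1 and Rsad1 (0.59), and the lowest Kdm6a (-0.87), Xist (-0.86), Kdm5c (-0.80), Mdfic and Rnft1. Xist, Kdm6a and Kdm5c are X-linked, and the set that holds vehicle holds paclitaxel males and vehicle females only, so in it sex runs with treatment. Of the genes left out, Arntl had r of -0.95 with Dbp, -0.85 with Per3, -0.83 with Nr1d2 and 0.75 with Npas2, and Dbp had r of 0.88 with Nr1d2, 0.82 with Per3 and 0.81 with Tef. Other members were less alike, with r to Arntl of 0.46 for Clock, -0.45 for Per1 and -0.41 for Per2. The tissues also differed, with r to Arntl of -0.37 in paw and -0.90 in DRG for Nr1d1, and -0.24 and -0.91 for Per2.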

How the data were processed

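Stranded mRNA libraries of 50-base single-end reads were sequenced from hind paw punch biopsies and L3 to L5 DRG, per the labels' protocols. The authors deposited whole-number gene counts per library, made with bcl2fastq, TopHat2 and HTSeq on mm9, per the submitters' processing notes. Versions, the annotation and HTSeq's strand setting are not given in the sources used here. Each file ends in 5 summary lines, which stayed out of totals and tests.

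From the counts, CPM were computed over all gene reads. Each tissue was fitted with edgeR 4.0.16 (TMM scaling, filterByExpr, robust quasi-likelihood F test, Benjamini-Hochberg adjustment over all genes tested, called under 0.05), with 1 coefficient per group and all its libraries in the fit, 24 for paw (15346 genes tested) and 15 for DRG (15577). Comparisons between tissues used all 39 libraries (16547 genes). All 10 members passed the filter in each fit, so none was lost to it. SE is the log2 change divided by the square root of F. Comparisons of replicates within each group found no library deposited 2 times in the same group, and libraries of different groups were not compared for this. Alternatives were DESeq2 1.42.0, no low-count filter, relative-log-expression size factors, the compared groups alone, a replicate block and each library left out. Muscle marker level was also added as a covariate in the paw fit and the fit of both tissues, but not in the DRG fit. The tests of tissue by treatment were added after the data had been seen.

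The replicate numbers are shared by the groups, and nothing in the labels says what they pair. Same-numbered libraries deviated together from their group means with every correlation over 0.1 in 5 comparisons, namely female day 2 with vehicle (0.163 to 0.591), male day 6 with vehicle (0.248 to 0.636) and male day 15 with vehicle (0.194 to 0.554) in paw, and male day 6 with day 2 (0.124 to 0.30) and with vehicle (0.101 to 0.15) in DRG. The pairing there comes from the values alone.

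The 10 members and the lists of other clock genes, clock output, glucocorticoid response, immediate early genes and cell type markers were chosen with earlier results of these data known. The members were named throughout, up to 4 called genes with the smallest p per comparison from the other clock genes, up to 3 from the next 3 lists, and, outside the members and the other clock genes, the 5 genes of highest and of lowest r with Arntl and Dbp where mean log2 CPM reached 1 in both tissues. Gene positions, for 20284 of 22609 symbols, came from GENCODE vM21 on GRCm38.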

Additional observations from a re-analysis of the deposited data

Results flagged for a closer look

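The change against vehicle differed between paw and DRG in 6 cases, by edgeR's test of the difference itself, paw minus DRG. For Nr1d1 it was -0.98 ± 0.25 log2 (adjusted p = 0.0185) in females on day 2, -1.48 ± 0.25 (0.00113) in males on day 2 and -1.18 ± 0.25 (0.0052) in males on day 6. For Tef it was 0.54 ± 0.14 (0.0278) in males on day 2 and 0.53 ± 0.14 (0.0213) on day 6, and for Arntl 0.80 ± 0.21 (0.0333) in males on day 2. The 2 male calls of Nr1d1 held whichever library was left out. The female call was lost without DRG paclitaxel replicate 1 or 3, DRG vehicle replicate 1 or 3 or paw vehicle replicate 2 (-0.80 to -0.93, adjusted p = 0.0536 to 0.0693) and with only the compared groups in the fit (-0.97, 0.0632). The Arntl call was lost without DRG paclitaxel replicate 2 or 3, DRG vehicle replicate 2, paw paclitaxel replicate 3 or paw vehicle replicate 1 or 2 (0.61 to 0.83, adjusted p = 0.0581 to 0.105) and with only the compared groups in the fit (0.82, 0.0555). The Tef call of day 2 was lost without 7 of 12 libraries, which were DRG paclitaxel replicate 1 or 3, DRG vehicle replicate 1 or 2, paw paclitaxel replicate 2 and paw vehicle replicate 2 or 3 (0.48 to 0.55, adjusted p = 0.0571 to 0.0776). That of day 6 was lost without paw vehicle replicate 2 (0.50, 0.057) or 3 (0.47, 0.0631). Exons of Nr1d1 share 9.67% of their bases with Thra on the other strand, and its part in these values was not tested.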

How the results depend on the processing

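Member calls changed direction under none of the alternatives run. Of 310 tests of a member, all 310 kept their side of the threshold with relative-log-expression size factors, 309 without the low-count filter, 306 with the replicate block, 300 with DESeq2 and 293 with only the compared groups in the fit, and 215 of 220 did with the muscle covariate. With each library left out in turn, 2228 of 2340 did, 99 calls were lost and 13 gained. Dbp remained called against vehicle in each of these that was run. The muscle covariate was not run in the DRG fit, so the DRG calls against vehicle were not checked with it. With the replicate block, lost calls were DRG Npas2 (-0.84, adjusted p = 0.0712) and Nr1d1 (1.403, 0.0573) in males on day 2, Npas2 in males on day 6 (-0.71, 0.0552) and Nr1d1 between females and males on day 2 (-0.62, 0.0542), and no other member call changed. Counts of genes called moved by over 1.5 times as follows, with the count of the edgeR analysis above in brackets. With DESeq2, genes called were 1491 (123) for paw female day 6 against day 2, 501 (216) for paw female day 16 against day 2, 249 (0) for paw female day 26 against day 2, 2 (0) for paw male day 15 against day 2, 1545 (897) for paw male day 2 against vehicle and 1434 (902) for paw male day 6 against vehicle. Under the same setting, they were 1109 (654) for paw male day 15 against vehicle, 227 (33) for DRG female day 6 against day 2, 23 (0) for DRG male day 6 against day 2, 191 (59) for DRG male day 2 against vehicle, 780 (310) for DRG male day 6 against vehicle and 17 (0) for paw sex by time, day 6 against day 2. The others were 24 (1) for DRG sex by time, day 6 against day 2, 812 (333) for tissue by time, female day 6 against day 2, 2291 (979) for paw female across days, 3 (0) for paw male across days, 1205 (715) for tissue by treatment, female day 2 against vehicle and 850 (546) for tissue by treatment, male day 2 against vehicle. With DESeq2, members called were 5 (0) for paw female day 26 against day 2, 1 (0) for paw male day 15 against day 2, 6 (3) for paw female across days, 1 (0) for paw male across days and 2 (1) for tissue by treatment, female day 2 against vehicle. With only the compared groups in the fit, genes called were 2265 (4401) for paw female day 2 against vehicle, 0 (123) for paw female day 6 against day 2, 0 (216) for paw female day 16 against day 2, 2 (0) for paw female day 26 against day 2, 2 (0) for paw male day 15 against day 2 and 251 (897) for paw male day 2 against vehicle. Under the same setting, they were 1998 (4757) for paw female against male day 2, 0 (33) for DRG female day 6 against day 2, 3 (0) for DRG male day 6 against day 2, 166 (59) for DRG male day 2 against vehicle, 1058 (310) for DRG male day 6 against vehicle and 0 (1) for DRG sex by time, day 6 against day 2. The others were 0 (333) for tissue by time, female day 6 against day 2, 18 (979) for paw female across days, 384 (715) for tissue by treatment, female day 2 against vehicle and 1526 (977) for tissue by treatment, male day 6 against vehicle. With only the compared groups in the fit, members called were 2 (4) for paw female against male day 2, 0 (1) for tissue by treatment, female day 2 against vehicle and 4 (2) for tissue by treatment, male day 6 against vehicle. Without the low-count filter, genes called were 80 (123) for paw female day 6 against day 2, 3 (1) for DRG sex by time, day 6 against day 2 and 183 (333) for tissue by time, female day 6 against day 2. With the replicate block, genes called were 604 (123) for paw female day 6 against day 2 and 2 (1) for DRG sex by time, day 6 against day 2. With the muscle covariate, genes called were 0 (123) for paw female day 6 against day 2, 1382 (897) for paw male day 2 against vehicle, 1363 (902) for paw male day 6 against vehicle and 36 (333) for tissue by time, female day 6 against day 2. With relative-log-expression size factors, genes called were 3 (1) for DRG sex by time, day 6 against day 2. Leaving out each library in turn gave ranges. For genes called they were 0 to 2059 (123) for paw female day 6 against day 2, 1 to 469 (216) for paw female day 16 against day 2, 0 to 258 (0) for paw female day 26 against day 2, 338 to 711 (897) for paw male day 2 against vehicle, 295 to 716 (902) for paw male day 6 against vehicle and 127 to 449 (654) for paw male day 15 against vehicle. Further ranges were 6 to 986 (33) for DRG female day 6 against day 2, 20 to 78 (59) for DRG male day 2 against vehicle, 30 to 215 (310) for DRG male day 6 against vehicle, 0 to 12 (0) for paw sex by time, day 6 against day 2, 0 to 467 (1) for DRG sex by time, day 6 against day 2 and 4 to 1265 (333) for tissue by time, female day 6 against day 2. The last were 332 to 1799 (979) for paw female across days, 0 to 1 (0) for paw male across days, 349 to 1327 (715) for tissue by treatment, female day 2 against vehicle, 172 to 586 (546) for tissue by treatment, male day 2 against vehicle and 395 to 1107 (977) for tissue by treatment, male day 6 against vehicle. For members called they were 4 to 6 (7) for paw female day 16 against vehicle, 1 to 5 (5) for paw female day 26 against vehicle, 0 to 3 (0) for paw female day 26 against day 2, 3 to 5 (5) for paw male day 15 against vehicle, 3 to 6 (5) for paw female against male day 6 and 5 to 7 (8) for DRG male day 6 against vehicle. Further ranges were 0 to 2 (1) for tissue by treatment, female day 2 against vehicle, 1 to 3 (3) for tissue by treatment, male day 2 against vehicle and 1 to 3 (2) for tissue by treatment, male day 6 against vehicle. The cause of these moves was not tested, except that leaving out libraries leaves fewer samples. Npas2 had 67 to 218 reads a library in DRG.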
